A study of Mus musculus with 12 samples.

Results

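Left ventricles (LV) from offspring that carried both a Hif1a mutation and exposure to maternal diabetes were compared with LV from offspring that carried neither. The comparison rested on 6 of the 12 samples of the series, 3 Hif1a+/- samples from diabetic pregnancies and 3 Wt samples from non-diabetic pregnancies. Every gene with 10 or more counts in at least 3 of these 6 samples was tested, which left 14505 of the 46983 genes in the count tables. Of the genes tested, 307 reached 10 counts in exactly 3 samples, while 400 genes that reached it in exactly 2 samples were not tested. A total of 48 genes passed through the 3 Hif1a+/- diabetic samples alone and 1 gene through the 3 Wt non-diabetic samples alone.

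All mice were 12-week-old FVB offspring of Wt dams mated with Hif1a+/- males, so the Hif1a tm1jhu null allele, a deletion present in every cell, always came from the father. Dams of the diabetic group received streptozotocin (STZ), a toxin of the insulin-producing beta cells, before mating, and the offspring themselves were not treated. Wt is the wild-type genotype, and the Hif1a+/- offspring kept 1 functional allele. The remaining 6 samples of the series, 3 from Wt offspring of diabetic pregnancies and 3 from Hif1a+/- offspring of non-diabetic pregnancies, entered the estimate of the spread and are given beside the main comparison. Within each group the mice came from different litters, whether litters were shared between groups is not given in the sources used here, and a treatment effect of STZ on the dam cannot be told apart from maternal diabetes.

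HIF-1 is a transcription factor made of an oxygen-sensitive alpha subunit, encoded by Hif1a, and a stable beta subunit. In well-oxygenated cells, prolyl hydroxylases mark the alpha subunit for destruction, and under hypoxia it accumulates and switches on genes of glucose uptake, glycolysis, vessel growth and red cell supply. In the heart it takes part in development, vascularization and the choice of fuel, and it also acts in macrophages and fibroblasts.

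The question was which genes and processes differed between LV with both hits and LV with neither. At the threshold of adjusted p under 0.1, edgeR's quasi-likelihood test called 0 of 14505 genes (0% of the genes tested), with a smallest adjusted p of 0.29. The unadjusted p was under 0.05 for 591 genes with higher levels in the Hif1a+/- diabetic LV (4.07% of all tested) and for 688 with lower levels (4.74%), or 8.82% in either direction. A difference of at least 1.3-fold was seen for 968 genes that were higher (6.67%) and 911 that were lower (6.28%). The paper used another tool, DESeq2, with the same threshold of 0.1. DESeq2 on the same counts called 76 genes here (0.524%), 47 of them higher (0.324%) and 29 lower (0.2%), and limma-voom with sample weights called 2 genes (0.0138%). The 3 and 3 samples did not overlap for 1092 genes that were higher (7.53%) and 1034 that were lower (7.13%), together 14.7%. All 76 genes that DESeq2 called were among these. In what follows, counts of list members that were higher or lower refer to an unadjusted p under 0.05 and are to be read beside the 4.07% and 4.74% of all genes, and every adjusted p from edgeR was at least 0.29 unless stated. The differences described here are therefore values with their errors, and none of them passed the main test. The tested genes had a median log2 fold change of -0.004 (5th to 95th percentile, -0.43 to 0.44).

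**Figure D1:**
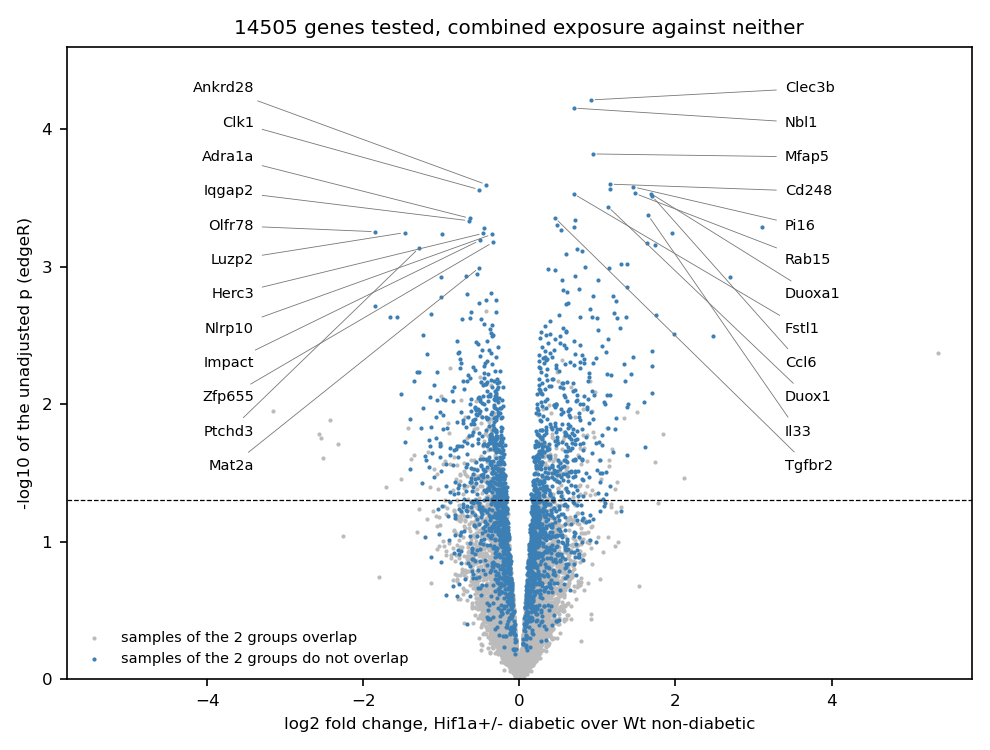
Each point is 1 of the 14505 genes tested, with the log2 fold change of the Hif1a+/- diabetic over the Wt non-diabetic LV on the horizontal axis and the -log10 of the unadjusted edgeR p on the vertical axis, where the dashed line marks p of 0.05. Blue points are genes whose 3 and 3 samples do not overlap, and the labels name the 12 higher and 12 lower genes with the smallest p outside the X and Y chromosomes, of which Clec3b and Nbl1 lie highest.

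Total counts per sample ran from 16132442 to 24377534 in Wt non-diabetic LV and from 21990513 to 39812939 in Hif1a+/- diabetic LV. The sample labels call every mouse female and the series' design text calls them male. Of the 6 samples, 5 had the Y-linked gene Ddx3y at 76 to 107 CPM (read counts scaled to a common library size) and Xist, the RNA of the inactive X chromosome, at 0.776 to 2.18 CPM, whereas Hif1a+/- diabetic replicate 72 had Ddx3y at 0.352 CPM and Xist at 158 CPM. Without replicate 72, 552 genes were higher (3.81%) and 488 lower (3.36%) at unadjusted p under 0.05, edgeR called 0 genes, and DESeq2 called 97. Wt non-diabetic replicate 89 differed from the 3 Hif1a+/- diabetic samples by a root mean square of 0.253, 0.243 and 0.253 on the log2 scale, less than any pair within a group (0.266 to 0.314), and so stood closer to the other group than to its own. Wt non-diabetic replicate 25 carried 7318 CPM of red cell transcripts against 185 to 733 CPM in the other 5 samples. Cardiomyocyte markers summed to 77890 to 81440 CPM in Wt non-diabetic and 75390 to 85730 CPM in Hif1a+/- diabetic LV, and Myh6, the alpha myosin heavy chain of adult mouse heart, had the highest counts of all genes, at 26370 to 32100 CPM.

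Hif1a itself stood at 55.6, 57.0 and 71.8 CPM in the 3 Wt non-diabetic samples and at 70.5, 64.8 and 81.4 CPM in the 3 Hif1a+/- diabetic samples. The groups overlapped, and the log2 fold change was 0.23 ± 0.12 (SE; edgeR, adjusted p = 0.59). The libraries count the 3′ ends of transcripts, and the place of the deletion relative to those ends was not examined here, so this count does not check the genotype. In Hif1a+/- LV from non-diabetic pregnancies Hif1a stood at 89.4, 78.8 and 89.0 CPM. On the same chromosome a pair of genes stood apart from the Wt non-diabetic samples in both Hif1a+/- groups. Rab15 (chr12:76797960-76822908, minus strand, GRCm38), a small GTPase of endosomal recycling that starts 2.9 Mb from Hif1a, stood at 0.436, 0.728 and 0.572 CPM in Wt non-diabetic and at 1.57, 2.07 and 1.32 CPM in Hif1a+/- diabetic LV, a log2 fold change of 1.48 ± 0.30. The processed transcript 2310015A10Rik (chr12:80120546-80132844, minus strand, GRCm38), 6.22 Mb from Hif1a, stood at 59.9, 56.4 and 57.2 CPM against 46.3, 36.8 and 44.0 CPM, a log2 fold change of -0.45 ± 0.10. In Hif1a+/- non-diabetic LV the log2 fold changes of Rab15 and 2310015A10Rik over the same Wt samples were 1.21 and -0.42, and in Wt diabetic LV they were 0.87 and -0.10. Rab15 therefore did not set the Hif1a+/- groups apart alone, since the Wt diabetic samples (0.831, 1.295 and 1.086 CPM) also lay above the highest Wt non-diabetic sample. Of the 106 genes tested within 10 Mb of Hif1a, 1 was higher and 12 were lower at unadjusted p under 0.05, beside 4.07% and 4.74% of all genes. For those 12 the log2 fold changes in Hif1a+/- non-diabetic LV ran from -0.42 (2310015A10Rik) to 0.09 (Arid4a), and Prpf39 stood at -0.06.

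The smallest p values belonged to a set of stromal and extracellular genes that were higher with both hits. Clec3b (chr9:123150946-123157432, plus strand, GRCm38), which encodes the plasminogen-binding protein tetranectin, stood at 51.3, 48.5 and 57.8 CPM in Wt non-diabetic and at 71.2, 109 and 117 CPM in Hif1a+/- diabetic LV. The groups did not overlap, and the log2 fold change was 0.92 ± 0.16 (edgeR, adjusted p = 0.29). Clec3b was 1 of the 2 genes that limma-voom called and the single gene that edgeR called when Hif1a+/- diabetic replicate 66 was left out (adjusted p = 0.00719). Nbl1, a secreted antagonist of bone morphogenetic proteins, stood at 14.5, 14.6 and 16.1 CPM against 23.2, 24.0 and 26.0 CPM (log2 fold change 0.70 ± 0.12). Mfap5, a glycoprotein of elastin-associated microfibrils and the other gene that limma-voom called, stood at 21.3, 21.6 and 29.7 CPM against 43.3, 40.3 and 56.0 CPM (0.94 ± 0.18).

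Pi16, a marker of adventitial fibroblasts, stood at 64.8, 47.5 and 70.6 CPM in Wt non-diabetic and at 146, 91.4 and 267 CPM in Hif1a+/- diabetic LV. Replicate 77 held the highest level, the groups did not overlap, and the log2 fold change of 1.46 ± 0.30 became 0.96 without that sample. Cd248, the stromal surface protein endosialin, was also highest in replicate 77, with 15.1, 15.97 and 16.6 CPM against 24.2, 29.4 and 53.6 CPM (1.16 ± 0.23, and 0.75 without that sample). Fstl1, a secreted follistatin-like glycoprotein, stood at 99.6, 109 and 110 CPM against 155, 143 and 219 CPM (0.70 ± 0.14). Tgfbr2, the type II receptor of transforming growth factor beta, differed less, with 59.5, 59.5 and 62.6 CPM against 79.8, 72.4 and 97.1 CPM (0.46 ± 0.10). In all of these genes the lowest Hif1a+/- diabetic sample lay above the highest Wt non-diabetic sample.

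In neither single-exposure group did these stromal genes reach such levels. The log2 fold changes over the same Wt non-diabetic samples, in Wt diabetic and Hif1a+/- non-diabetic LV respectively, were 0.16 and 0.00 for Clec3b, 0.13 and 0.03 for Mfap5, -0.01 and -0.08 for Pi16 and 0.03 and 0.09 for Cd248. All 3 comparisons share the Wt non-diabetic samples. The test of the interaction, which asks whether the combined difference departs from the sum of both single differences on the log scale, called 0 genes with edgeR (0% of the genes tested, smallest adjusted p = 0.997), and 367 genes had an unadjusted p under 0.05 (2.53%). Its estimate was 1.55 for Pi16 and 0.75 for Clec3b on the log2 scale. DESeq2 called 4 genes for the interaction, namely Ivns1abp, Fbn1, Txnip and Duox1, the first 3 of which are named here after their values were seen.

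**Figure D2:**
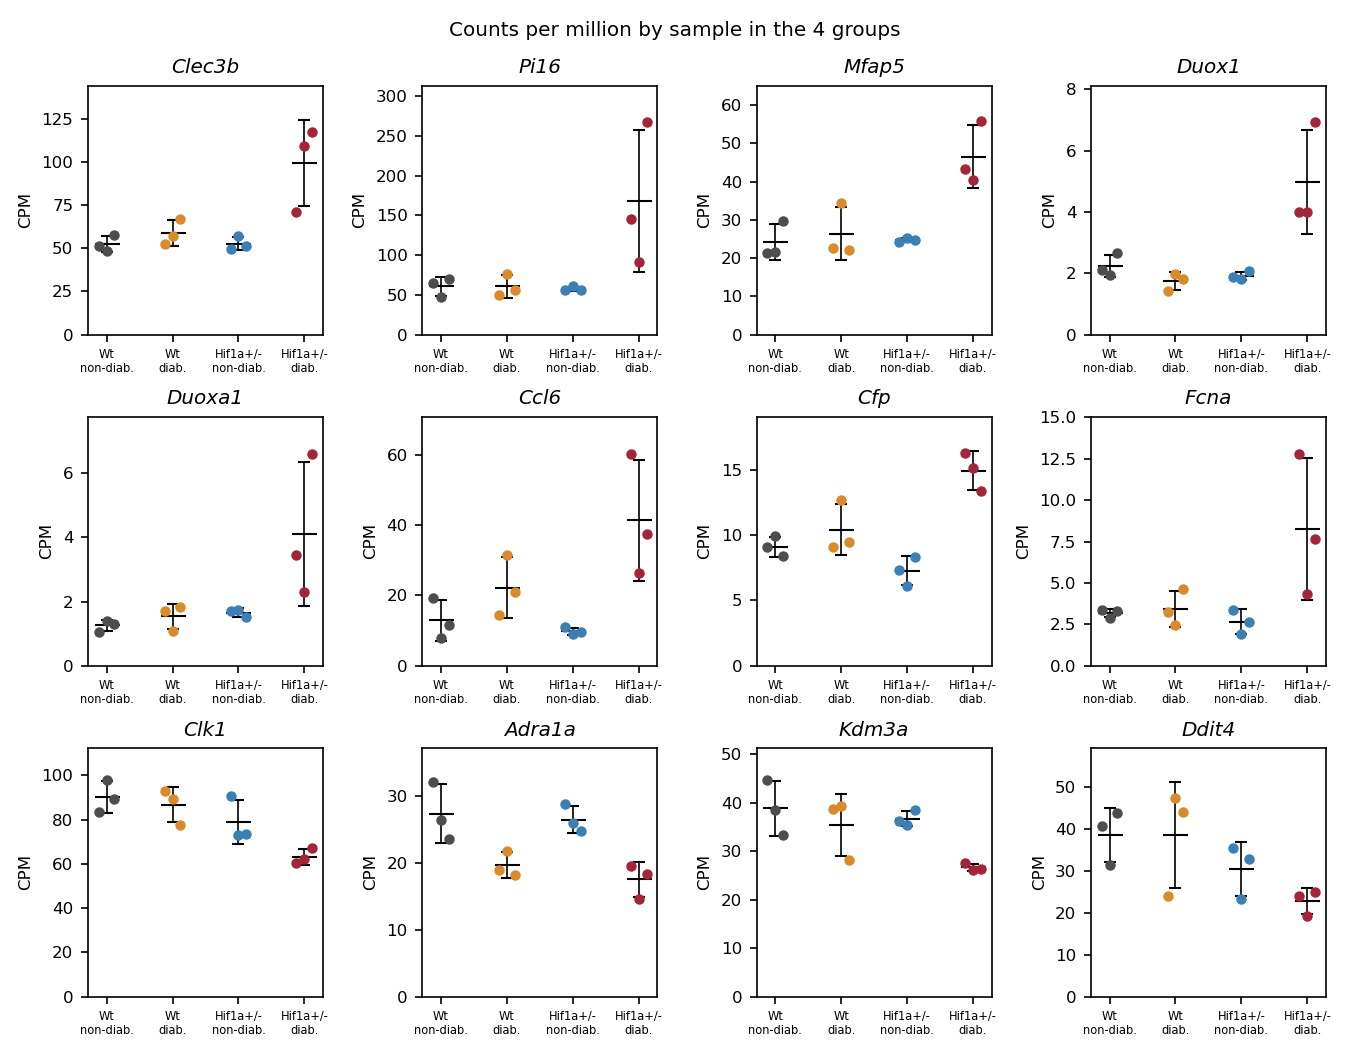
CPM by sample for 12 genes, 1 panel per gene, with the 4 groups on the horizontal axis, points for single samples and bars for the mean and SD of 3 samples. In Clec3b, Pi16, Mfap5, Duox1, Duoxa1, Ccl6, Cfp and Fcna the Hif1a+/- diabetic samples lie above the Wt non-diabetic samples, and in Clk1, Adra1a, Kdm3a and Ddit4 they lie below.

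Markers of adventitial fibroblasts, the connective tissue cells around vessels, were higher as a sum. The 8 markers, which include Clec3b, Mfap5, Pi16 and Cd248, summed to 491 to 584 CPM in Wt non-diabetic and 727 to 1096 CPM in Hif1a+/- diabetic LV, and 7 of 8 were higher at unadjusted p under 0.05. Clec3b, Mfap5, Pi16, Cd248 and Dpt of this list are also among the differential genes that the paper lists from these samples. The sum and the count are therefore not separate from the single genes described above. Markers of fibroblasts at large overlapped, at 2703 to 3587 against 3048 to 4097 CPM, with 1 of 8 higher. Macrophage markers summed to 303 to 424 against 452 to 624 CPM, with 6 of 9 higher, and lymphatic endothelial markers to 127 to 143 against 151 to 155 CPM, with 3 of 6 higher. The 3 lymphatic markers were Pdpn, Lyve1 and Ccl21a, of which Lyve1 and Ccl21a overlapped between the groups, and Prox1 had a log2 fold change of -0.004. In Wt diabetic LV the macrophage sums ran from 302 to 492 CPM and the lymphatic sums from 133 to 157 CPM. None of the adventitial and macrophage markers was at 0 counts. In whole tissue, more cells of a type and more RNA per cell cannot be told apart, and the part of cell composition in the gene lists that follow was not tested. Counting stained macrophages in LV sections, the paper found significantly more of them only in Wt offspring of diabetic pregnancies. Sums of endothelial (1739 to 1886 against 1719 to 1820 CPM), smooth muscle and pericyte (947 to 1105 against 924 to 1024 CPM, 3 of 8 lower), atrial, mesothelial, granulocyte, B cell, T and NK cell, mast cell, adipocyte, Schwann cell, skeletal muscle and erythroid markers overlapped between the groups, although 4 of 4 erythroid and 2 of 5 Schwann cell markers tested were lower. The erythroid median of -2.47 was -0.09 without Wt non-diabetic replicate 25.

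The process lists held 681 entries, of which 664 were tested and 17 had too few counts, and some genes stood in several lists. These lists were chosen with earlier results of these data known, so their counts and medians describe values and are not separate support. Genes of phagocytes made up the list with the most members at small p. Of 32 phagocyte receptors, integrins and signalling adaptors tested, 24 were higher and 0 lower at unadjusted p under 0.05, 22 had groups that did not overlap, and the median log2 fold change was 0.69, beside 0.47 to 0.78 when 1 library was left out. Axl, a receptor for the clearance of apoptotic cells, stood at 109, 93.3 and 97.9 CPM in Wt non-diabetic and at 146, 142 and 199 CPM in Hif1a+/- diabetic LV (log2 fold change 0.70 ± 0.15). Tlr13, an endosomal receptor for bacterial ribosomal RNA, stood at 2.92, 1.55 and 2.53 CPM against 5.72, 5.28 and 7.11 CPM (1.38 ± 0.33). Clec4n, the fungal pattern receptor dectin-2, stood at 2.61, 1.55 and 3.43 CPM against 6.03, 4.09 and 5.16 CPM (1.01 ± 0.25). Each of the 3 genes separated the groups completely. Leaving out replicate 72, the sample without Y-linked expression, gave 25 higher and 0 lower.

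In complement, the cascade of plasma proteins that tags particles for uptake, 10 of 17 members tested were higher and 0 lower, with a median log2 fold change of 0.67. Cfp, properdin, the stabiliser of the alternative pathway convertase, stood at 9.09, 9.92 and 8.37 CPM against 16.3, 15.2 and 13.4 CPM (0.71 ± 0.16). Fcna, the lectin pathway protein ficolin A, stood at 3.36, 2.91 and 3.31 CPM against 12.8, 4.31 and 7.63 CPM (1.39 ± 0.34). Cd55, which dismantles the convertase on host cells and so restrains the cascade, was also higher, at 9.77, 9.32 and 10.5 CPM against 17.1, 13.7 and 35.3 CPM (1.15 ± 0.28). The higher members thus included activators and this inhibitor. C1qa, a subunit of the first component and also a macrophage marker, stood at 49.7, 50.3 and 69.1 CPM against 86.6, 77.1 and 136 CPM (0.82 ± 0.24). Without replicate 77 the log2 fold changes were 0.64 for Cd55 and 0.54 for C1qa, and without replicate 66 that of Fcna was 0.90.

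Among 26 chemokines, cytokines and their receptors, 9 were higher and 0 lower at unadjusted p under 0.05, with a median of 0.40. Ccl6, a chemokine that attracts monocytes, had the largest positive difference among genes with a mean of at least 5 CPM whose groups did not overlap, at 19.3, 7.82 and 11.6 CPM in Wt non-diabetic and 60.2, 26.5 and 37.3 CPM in Hif1a+/- diabetic LV (1.70 ± 0.35). Its neighbour and relative Ccl9, which ends 9245 bases away, stood at 9.96, 5.37 and 6.13 CPM against 32.5, 13.8 and 19.4 CPM (1.64 ± 0.37), and the counting may not fully separate reads of such relatives. In both, replicate 66 was highest and replicate 72 lowest of the Hif1a+/- diabetic samples. Il33, an alarmin cytokine kept in nuclei of stromal and barrier cells, stood at 3.796, 2.23 and 2.17 CPM against 5.47, 7.48 and 12.5 CPM (1.65 ± 0.35). In Wt diabetic LV the log2 fold changes over the same Wt non-diabetic samples were 1.27 for Il33, 0.80 for Ccl6 and 0.89 for Ccl9, and the 3 samples of Il33 held 4.48, 8.01 and 6.86 CPM.

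Lysosomal hydrolases and cathepsins were higher in 13 of 25 members and lower in 0, with a smaller median of 0.22. Lyz2, the lysozyme of macrophages, stood at 140, 126 and 195 CPM against 294, 205 and 259 CPM (0.72 ± 0.21). Ctsc and Ctss, proteases of immune cells, had log2 fold changes of 0.61 ± 0.15 and 0.68 ± 0.22, or 0.41 and 0.41 without replicate 77. All 7 MHC class II presentation genes tested had positive values with a median of 0.75, but only H2-DMb1 had a p under 0.05, and Cd74, the invariant chain, ranged from 29.2 to 74.1 CPM in Wt non-diabetic and from 51.2 to 144 CPM in Hif1a+/- diabetic LV. The MHC class II median was 0.18 to 1.10 when 1 library was left out, the widest range of the immune lists. In Wt diabetic LV the median of this list over the same Wt samples was higher, at 0.96, and in Hif1a+/- non-diabetic LV it was -0.03. By sample the list overlapped, at -0.16 to 0.22 in Wt non-diabetic and 0.05 to 0.86 in Hif1a+/- diabetic LV. Of 25 interferon-stimulated genes 2 were higher, Ifitm1 and Ifitm2, with a median of 0.17.

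**Figure D3:**
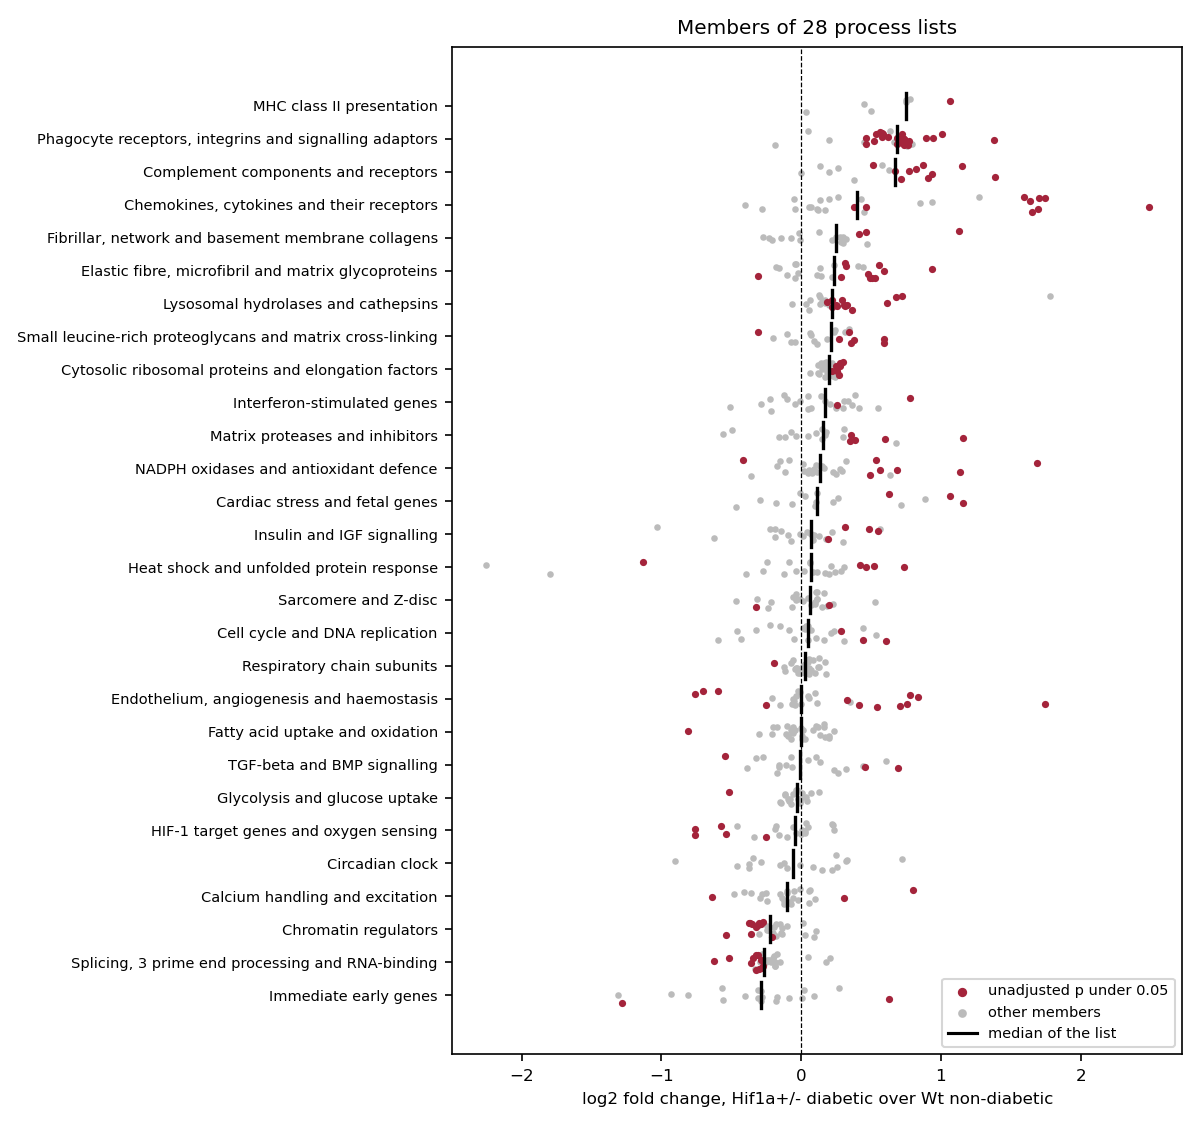
Log2 fold changes of the members of 28 process lists (horizontal axis), with red points for an unadjusted p under 0.05 and black bars for list medians, lists ordered by median. MHC class II, phagocyte and complement genes have the highest medians (0.75, 0.69 and 0.67), and splicing and immediate early genes the lowest (-0.26 and -0.29).

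The enzyme pair that makes hydrogen peroxide at the cell surface was higher together. Duox1, a dual oxidase, stood at 2.12, 1.96 and 2.65 CPM in Wt non-diabetic and at 4.00, 4.00 and 6.93 CPM in Hif1a+/- diabetic LV (1.14 ± 0.24). Its maturation factor Duoxa1, which lies head to head with Duox1 on chr2 with 1941 bases between the genes, stood at 1.06, 1.41 and 1.31 CPM against 3.44, 2.29 and 6.62 CPM (1.69 ± 0.35). Duox1 was below the Wt non-diabetic mean in both single-exposure groups, with log2 fold changes of -0.36 in Wt diabetic and -0.23 in Hif1a+/- non-diabetic LV, and its interaction estimate was 1.73 (adjusted p = 0.997, edgeR). For Duoxa1 these values were 0.26 and 0.39, and its 3 Hif1a+/- non-diabetic samples (1.51 to 1.75 CPM) lay above the highest Wt non-diabetic sample. Of all 29 NADPH oxidase and antioxidant genes, 6 were higher and 1 lower, and Ncf1, a cytosolic subunit of the phagocyte oxidase, was among the higher (0.69 ± 0.21). Because the pair differed together, the sequence before each start is shown, from RefSeq (GRCm38.p6), 5′ to 3′ on the gene's strand, with each ACGTG or GCGTG on either strand, the core of the HIF-1 response element, in capitals.
Duox1 (chr2:122315422-122315671, plus strand, 250 bases): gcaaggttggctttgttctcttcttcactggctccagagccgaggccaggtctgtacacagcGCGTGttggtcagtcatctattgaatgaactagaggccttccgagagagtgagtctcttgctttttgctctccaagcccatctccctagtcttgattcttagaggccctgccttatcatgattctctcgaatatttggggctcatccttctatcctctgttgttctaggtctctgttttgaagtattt
Duoxa1 (chr2:122313731-122313980, minus strand, 250 bases): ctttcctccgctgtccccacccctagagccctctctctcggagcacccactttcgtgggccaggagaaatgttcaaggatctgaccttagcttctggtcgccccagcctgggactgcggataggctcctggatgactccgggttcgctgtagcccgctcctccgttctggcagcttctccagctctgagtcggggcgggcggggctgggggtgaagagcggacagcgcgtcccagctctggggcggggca
The Duox1 window held 1 such core, 188 bases before the start, and the Duoxa1 window held none. At least 1 core was held by 54.2% of the windows of tested genes and by 38.6% of all 32851 windows of 250 bases in the same set. For Clec3b, Mfap5 and Cd248 no window was used here.

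HIF-1 targets and oxygen-sensing genes included no member that was higher at unadjusted p under 0.05, and 5 of 24 were lower, beside 4.74% of all genes. Ddit4, a brake on mTORC1 induced by hypoxia, stood at 40.8, 31.3 and 43.8 CPM in Wt non-diabetic and at 24.1, 19.3 and 25.1 CPM in Hif1a+/- diabetic LV (-0.76 ± 0.23). Kdm3a, a histone H3 lysine 9 demethylase induced by hypoxia, stood at 44.6, 38.5 and 33.3 CPM against 27.5, 26.2 and 26.4 CPM (-0.54 ± 0.13, DESeq2 adjusted p = 0.0471). Pdk1, a kinase that inhibits pyruvate dehydrogenase, stood at 432, 408 and 404 CPM against 346, 351 and 351 CPM (-0.25 ± 0.09). The groups did not overlap in any of the 3. Vegfa and Adm, which were the other two and are named after their values were seen, overlapped, with log2 fold changes of -0.76 and -0.58, and in both the Wt non-diabetic replicate 89 was nearest to the Hif1a+/- diabetic samples. The list median was -0.05, since 10 of the 24 members had positive values.

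In the 22 genes of glycolysis and glucose uptake, 0 were higher and 1 was lower. That gene was Pfkfb2, the cardiac enzyme that makes the activator of phosphofructokinase, at 61.0, 66.9 and 58.6 CPM against 41.6, 41.8 and 47.0 CPM (-0.52 ± 0.13). Pkm, pyruvate kinase, overlapped at 1485 to 1673 CPM against 1422 to 1545 CPM, and so did the glycolytic enzyme Gapdh at 2011 to 2215 against 1799 to 2050 CPM. The median of the list was -0.03. The windows before the starts of the 4 lower genes whose groups did not overlap in the HIF-1 target and glycolysis lists are shown because HIF-1 is known to act on such genes. Bases that lie in an annotated exon next to the start were left out of Ddit4 (64) and Kdm3a (73).
Ddit4 (chr10:59951835-59952020, minus strand, 186 bases): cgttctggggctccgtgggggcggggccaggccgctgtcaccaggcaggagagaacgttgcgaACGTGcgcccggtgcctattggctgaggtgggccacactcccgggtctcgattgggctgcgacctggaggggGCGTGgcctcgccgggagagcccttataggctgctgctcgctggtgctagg
Pdk1 (chr2:71872974-71873223, plus strand, 250 bases): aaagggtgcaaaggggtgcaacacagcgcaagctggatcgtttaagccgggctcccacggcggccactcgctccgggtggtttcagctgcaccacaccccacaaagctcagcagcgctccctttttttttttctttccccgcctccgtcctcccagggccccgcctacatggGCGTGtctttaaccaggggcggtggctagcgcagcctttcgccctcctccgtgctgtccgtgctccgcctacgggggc
Pfkfb2 (chr1:130715822-130716071, minus strand, 250 bases): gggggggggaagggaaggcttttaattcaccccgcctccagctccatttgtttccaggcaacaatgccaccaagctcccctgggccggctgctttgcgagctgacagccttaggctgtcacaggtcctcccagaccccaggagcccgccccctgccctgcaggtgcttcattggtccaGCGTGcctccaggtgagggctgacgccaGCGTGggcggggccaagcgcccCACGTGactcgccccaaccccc
Kdm3a (chr6:71632991-71633167, minus strand, 177 bases): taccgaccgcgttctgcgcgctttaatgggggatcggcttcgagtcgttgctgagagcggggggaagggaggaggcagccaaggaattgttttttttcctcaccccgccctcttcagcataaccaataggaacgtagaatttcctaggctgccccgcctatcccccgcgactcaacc
Ddit4 held cores 187 and 115 bases before its start, Pdk1 held 1 at 78 bases, and Pfkfb2 held cores at 72, 44, 22 and 21 bases, the last pair overlapping on opposite strands. The Pfkfb2 window lies inside the annotated gene (chr1:130689182-130729253), so the start it precedes is an internal one. The single core of Kdm3a, 27 bases before the start, falls in the part left out. Among windows of tested genes 54.2% held a core, among those of the tested HIF-1 targets 74.1% (20 of 27), and among those of the 5 lower HIF-1 targets 55.6% (5 of 9), since a gene can have several windows. A match is a short run of letters and was not tested for binding.

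Matrix genes were higher in several lists. Of 25 elastic fibre, microfibril and matrix glycoprotein genes, 10 were higher and 1 lower at unadjusted p under 0.05 (median 0.23). Dpt, dermatopontin, a partner of decorin in collagen assembly, stood at 110, 104 and 109 CPM against 135, 154 and 177 CPM (0.53 ± 0.12). Emilin2, a glycoprotein at the elastin surface, had a log2 fold change of 0.60 ± 0.15 and Fbn1, fibrillin 1, one of 0.51 ± 0.15. Fbln1, Fbln2, Tnxb, Efemp2, Emilin1 and Ecm1 were the other higher members, and Sparcl1 was the lower one.

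Among small leucine-rich proteoglycans and cross-linking enzymes, 6 of 20 were higher and 1, Plod2, was lower (median 0.21). Plod3, a lysyl hydroxylase of procollagen, held 45.9, 45.8 and 45.3 CPM in Wt non-diabetic and 55.0, 55.0 and 55.1 CPM in Hif1a+/- diabetic LV (0.27 ± 0.08), with no overlap. Pcolce2, an enhancer of procollagen C-proteinase, and Loxl2, a lysyl oxidase, had log2 fold changes of 0.60 ± 0.16 and 0.59 ± 0.17. Of 19 collagens, 3 were higher, and the median of 0.25 became 0.02 without replicate 72. Col14a1, a collagen on the fibril surface, reached 51.0 CPM in replicate 72 against 15.6 and 25.2 CPM in the other two, beside 11.1 to 15.3 CPM in Wt non-diabetic LV. Col1a1, the main fibrillar collagen, overlapped, at 116, 167 and 174 CPM against 167, 276 and 188 CPM (0.46 ± 0.20).

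Matrix proteases and their inhibitors were higher in 5 of 20 and lower in 0 (median 0.16). The inhibitor Timp1 had the smallest p of them, at 1.99, 1.41 and 2.12 CPM against 4.52, 3.04 and 4.77 CPM (1.16 ± 0.24), and its interaction estimate was 1.61. Timp2 and the procollagen protease Adamts2 both differed by 0.35 on the log2 scale. Of 20 genes of TGF-beta and BMP signalling, Nbl1 and Tgfbr2 were higher and Skil, a co-repressor of Smad proteins, was lower, around a median of -0.01. Insulin and insulin-like growth factor genes were higher in 4 of 24, among them the binding protein Igfbp4, at 109, 105 and 111 CPM against 143, 141 and 169 CPM (0.48 ± 0.11). Without replicate 72 the count was 2 of 24. Without replicate 77 the log2 fold change of Timp2 was 0.19.

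**Figure D4:**
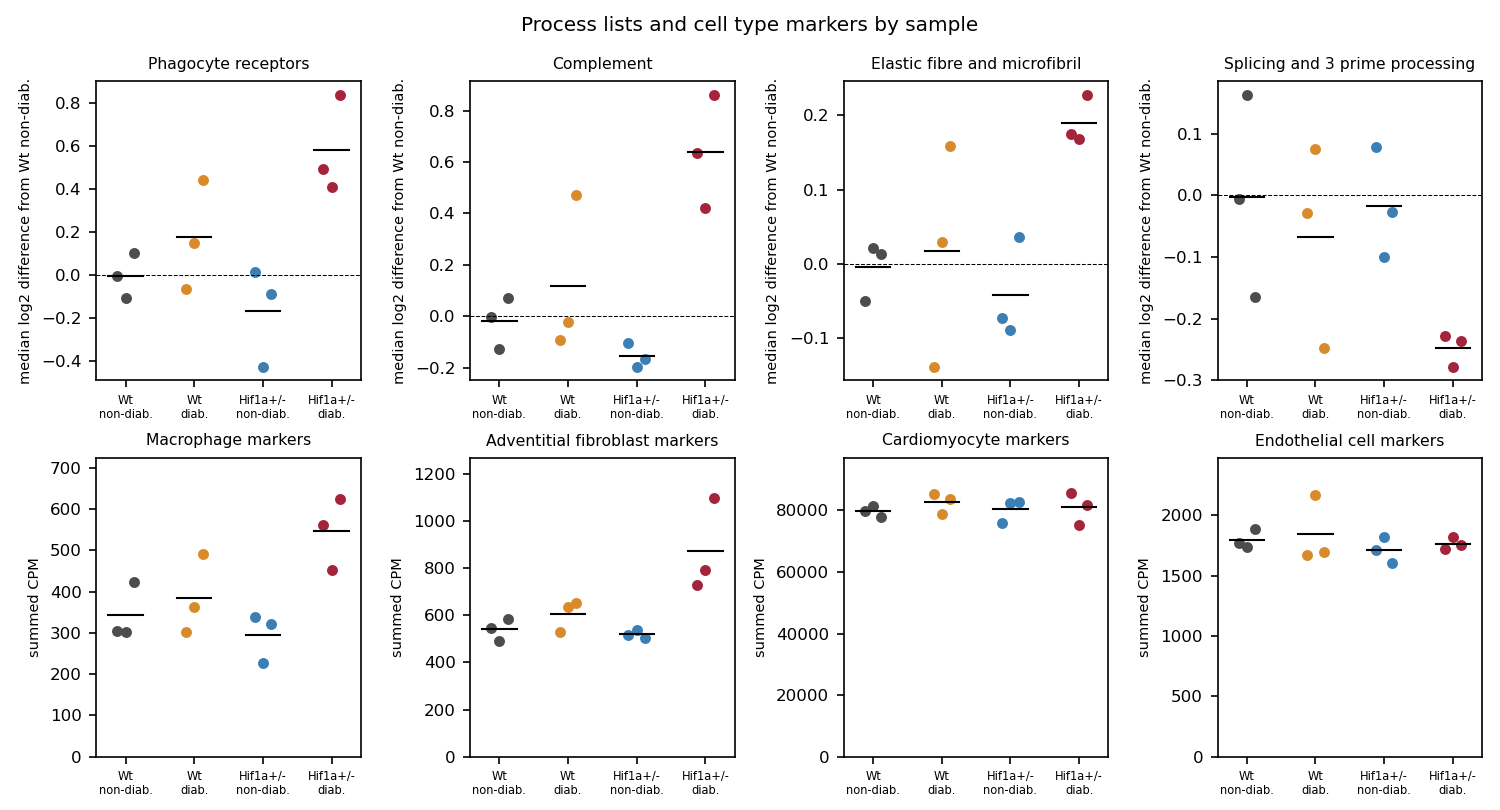
Upper row, the median over list members of the log2 difference from the Wt non-diabetic mean for 4 process lists. Lower row, summed CPM of 4 sets of cell type markers. Points are samples in the 4 groups and bars are group means. Phagocyte medians lie at 0.41 to 0.84 in the Hif1a+/- diabetic samples and at -0.10 to 0.10 in the Wt non-diabetic samples, while cardiomyocyte and endothelial marker sums overlap.

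Seen by sample, the phagocyte, complement and elastic fibre lists separated every Hif1a+/- diabetic sample from every Wt non-diabetic sample. All 3 lists hold genes that the paper lists as differential in these same samples, so this separation is not a separate result. The chemokine, lysosomal, proteoglycan and cross-linking, and matrix protease lists also separated the groups, and the splicing and immediate early lists did so with lower values. The median over the phagocyte list, relative to the Wt non-diabetic mean, was 0.41 to 0.84 in Hif1a+/- diabetic LV, -0.10 to 0.10 in Wt non-diabetic LV, -0.06 to 0.44 in Wt diabetic LV and -0.43 to 0.02 in Hif1a+/- non-diabetic LV. For complement the same medians were 0.42 to 0.86, -0.13 to 0.07, -0.09 to 0.47 and -0.20 to -0.10. For elastic fibre genes they were 0.17 to 0.23, -0.05 to 0.02, -0.14 to 0.16 and -0.09 to 0.04. Wt diabetic replicate 80 came nearest, at 0.44, 0.47 and 0.16 in the 3 lists, and for complement and the phagocyte list it lay above the lowest Hif1a+/- diabetic sample, replicate 72.

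Genes of the vessel wall and haemostasis went both ways. Of 27 tested, 8 were higher and 4 lower at unadjusted p under 0.05, with a median of 0.00. The higher ones included Selp, the P-selectin that captures leukocytes, at 0.373, 0.182 and 0.449 CPM against 1.078, 0.748 and 1.59 CPM (1.74 ± 0.40). Its Wt non-diabetic levels lay near the floor set by the filter of 10 counts. F13a1, the A subunit of clotting factor XIII and also a gene of resident macrophages, stood at 57.8, 43.8 and 56.9 CPM against 104, 71.1 and 107 CPM (0.84 ± 0.20). Ptgis, prostacyclin synthase, differed by 0.54 ± 0.13. The lower ones were the growth factors Vegfa, Angpt1 and Angpt2 and the nitric oxide synthase Nos3, named after their values were seen. Without replicate 72 the counts were 9 higher and 0 lower.

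Among cardiomyocyte programmes, 21 of 27 genes of calcium handling and excitation had negative values, with a median of -0.10 (-0.15 to -0.06 with 1 library left out). Of all 14505 genes, 7367 were negative. By sample the list overlapped, at -0.12 to 0.11 in Wt non-diabetic and -0.22 to -0.08 in Hif1a+/- diabetic LV. In this list 15 of 27 genes lay in the longest of 4 equal classes of gene length, where the median of all genes was -0.075, and the part of length was not tested. Adra1a, the alpha-1A adrenergic receptor, stood at 32.2, 26.4 and 23.5 CPM in Wt non-diabetic and at 19.6, 14.6 and 18.4 CPM in Hif1a+/- diabetic LV (-0.64 ± 0.14), and in Wt diabetic LV its log2 fold change was -0.47. Rrad, a small G protein that restrains L-type calcium channels, was higher, at 181, 141 and 230 CPM against 339, 338 and 284 CPM (0.80 ± 0.18), with -0.03 and 0.04 in the single-exposure groups. Kcnq1, a potassium channel of repolarisation, differed by 0.30 ± 0.13. These were the 2 higher and 1 lower genes of the list.

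Of 26 sarcomere and Z-disc genes, Des, the intermediate filament desmin, was higher (2497, 2675 and 2847 CPM against 3185, 2890 and 3150 CPM) and Mylk3, the cardiac myosin light chain kinase, was lower (756, 802 and 645 CPM against 628, 527 and 606 CPM). Cardiac stress and fetal genes were higher in 3 of 16 (median 0.11), namely Timp1 and the metal-binding metallothioneins Mt1 and Mt2, while Myh7, the fetal beta myosin, stood at 870 to 924 against 1005 to 1110 CPM (0.23 ± 0.12). Respiratory chain subunits had 0 higher and 1 lower of 30 (Ndufs1, a complex I subunit, -0.19 ± 0.08) around a median of 0.03. Fatty acid uptake and oxidation had 0 higher and 1 lower of 31 (median -0.001), the regulator Ppara, which overlapped at 20.7 to 59.7 against 18.4 to 30.7 CPM (-0.81, and -0.43 without Wt non-diabetic replicate 25). In the same list Etfdh, which passes electrons from fatty acid oxidation to the respiratory chain, did not overlap between the groups (820 to 861 against 682 to 806 CPM) but had an unadjusted edgeR p of 0.0678.

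Lists of RNA processing and chromatin had negative medians, and translation genes a positive one. Of 28 splicing, 3′ end processing and RNA-binding genes, 0 were higher and 11 lower at unadjusted p under 0.05 (median -0.26). Clk1, a kinase that phosphorylates SR splicing factors, stood at 83.5, 98.02 and 89.6 CPM against 60.4, 62.3 and 67.2 CPM (-0.51 ± 0.11). Pcf11, a factor of transcript cleavage and termination, and Rbm39, a splicing coactivator, differed by -0.62 ± 0.16 and -0.31 ± 0.11. Of 28 chromatin regulators, 0 were higher and 11 lower (median -0.22), among them the demethylase Kdm5a (-0.35 ± 0.10) and the methyltransferase Setd2 (-0.36 ± 0.11). Without replicate 72 these counts were 5 lower for splicing and 4 lower for chromatin, while the medians were -0.26 and -0.21. By sample, the chromatin median relative to the Wt non-diabetic mean was -0.25 to -0.17 in Hif1a+/- diabetic LV and 0.11, 0.11 and -0.22 in Wt non-diabetic replicates 25, 42 and 89, so the groups overlapped through replicate 89. The splicing medians did not overlap (-0.28 to -0.23 against -0.17 to 0.16). They ran from -0.25 to 0.08 in Wt diabetic LV, where replicate 80 lay within the Hif1a+/- diabetic range, and from -0.10 to 0.08 in Hif1a+/- non-diabetic LV. The chromatin medians of these groups ran from -0.26 to 0.05 and from 0.04 to 0.07. Both lists hold genes that the paper lists as differential in these samples, so their medians are not separate results.

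All 30 cytosolic ribosomal protein and elongation factor genes had positive values, 7 were higher at unadjusted p under 0.05, and the median was 0.20, with a range of 0.06 to 0.30. Without replicate 72 the count was 4 and the median 0.18, and by sample the groups overlapped through Wt non-diabetic replicate 89 (0.15 against 0.13 to 0.24). Rpl3 stood at 115, 123 and 133 CPM against 151, 143 and 161 CPM (0.30 ± 0.10) and the elongation factor subunit Eef1g at 224, 226 and 239 CPM against 279, 270 and 285 CPM (0.28 ± 0.09). Ribosomal protein genes have many processed copies in the genome, which the counting could split. Of the ribosomal list 25 of 30 genes lay in the shortest of 4 equal classes of gene length and 0 in the longest, of the chromatin list 0 and 23 of 28, and of the splicing list 10 and 1 of 28. In the shortest 3619 genes (up to 8.86 kb from start to end) the median log2 fold change was 0.067 and in the longest 3618 genes (from 55 kb) it was -0.075, with 5.36% higher and 2.43% lower at unadjusted p under 0.05 in the former and 2.79% higher and 7.85% lower in the latter. Reads outside annotated genes, given as a share of reads, also differed, at 3.70% to 4.36% in Wt non-diabetic and 3.50% to 3.61% in Hif1a+/- diabetic LV. The part of gene length and of this share in the lists was not tested.

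**Figure D5:**
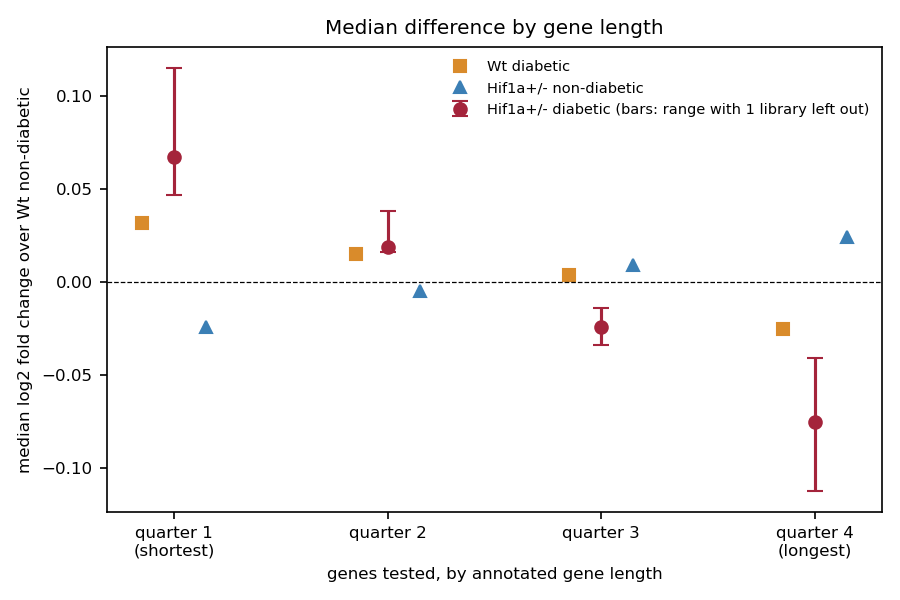
Median log2 fold change over Wt non-diabetic LV (vertical axis) for genes tested in 4 classes of equal size by annotated gene length (horizontal axis), with circles for Hif1a+/- diabetic, squares for Wt diabetic and triangles for Hif1a+/- non-diabetic LV. Bars give the range for Hif1a+/- diabetic LV when 1 library of the 6 was left out, and the medians step from 0.067 in the shortest to -0.075 in the longest class.

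The lower genes with the smallest p had diverse roles. Ankrd28, a subunit of protein phosphatase 6, stood at 45.6, 40.5 and 38.9 CPM in Wt non-diabetic and at 31.3, 29.5 and 32.2 CPM in Hif1a+/- diabetic LV (-0.42 ± 0.09). Iqgap2, a cytoskeletal scaffold, stood at 36.6, 28.3 and 27.2 CPM against 17.4, 18.1 and 23.3 CPM (-0.65 ± 0.14). Olfr78, an olfactory receptor also expressed in the oxygen-sensing carotid body, stood at 2.49, 3.05 and 1.63 CPM against 0.488, 0.924 and 0.618 CPM (-1.84 ± 0.41). It overlaps Olfr560 on the same strand in the annotation, so reads of both may be hard to separate. Mat2a, the enzyme that makes the methyl donor S-adenosylmethionine, stood at 196, 232 and 180 CPM against 129, 153 and 143 CPM (-0.52 ± 0.12), and Impact, an imprinted inhibitor of the GCN2 stress kinase, differed by -0.51 ± 0.12. Herc3, Nlrp10, Zfp655 and Luzp2 completed the 12 with Ptchd3, Clk1 and Adra1a, and Ptchd3 had a log2 fold change of -1.29 ± 0.30 with both hits and of -1.21 in Hif1a+/- non-diabetic LV. In Wt diabetic LV the values of the 12 over the same Wt samples ran from -0.06 (Clk1) to -0.76 (Luzp2). They were -0.38 for Herc3 (-0.46 with both hits), -0.32 for Impact and -0.27 for Ankrd28.

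Among genes with a mean of at least 5 CPM whose groups did not overlap, the largest negative differences included stress-responsive genes. Nr4a1, an immediate early nuclear receptor, stood at 27.6, 17.7 and 27.6 CPM against 10.6, 8.27 and 10.99 CPM (-1.28 ± 0.39). Sik1, a kinase induced by cyclic AMP, stood at 89.2, 117 and 52.9 CPM against 41.6, 33.0 and 35.2 CPM (-1.23 ± 0.41), and Dnajb1, a co-chaperone of HSP70, at 36.3, 67.4 and 29.0 CPM against 20.4, 19.6 and 20.7 CPM (-1.13 ± 0.40). In these 3 genes the groups did not overlap, and the Wt non-diabetic samples spanned a wider range than the Hif1a+/- diabetic samples. Malt1, a signalling protease of immune receptors, and Slc5a3, a transporter of myo-inositol, were the other two (-1.13 ± 0.30 and -1.12 ± 0.44). Wt non-diabetic replicate 42 was highest in all of these but Nr4a1, and without it the log2 fold changes were -0.68 for Dnajb1, -0.70 for Malt1 and -0.74 for Slc5a3. The 20 immediate early genes had a median of -0.29, with Nr4a1 lower and Myc higher, and 15 of the 20 were negative. By sample this list stood at 0.27 in Wt non-diabetic replicate 42, against -0.18 and -0.08 in the other two and -0.28 to -0.18 in Hif1a+/- diabetic LV, and its median was -0.11 without replicate 42.

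In the remaining lists the heat shock and unfolded protein response had 4 higher members and 1 lower of 24 (median 0.07). The endoplasmic reticulum chaperones Calr, at 288, 337 and 277 CPM against 461, 395 and 440 CPM (0.52 ± 0.15), and Pdia6 (0.46 ± 0.14) were higher, and the cytosolic Dnajb1 was lower. Cell cycle and DNA replication genes were higher in 3 of 24 (median 0.05), all subunits of the MCM helicase, with Mcm5 at 4.67, 4.73 and 6.09 CPM against 6.31, 10.2 and 7.33 CPM. Without replicate 72 the count was 1 and the median -0.03, and the log2 fold changes of Mcm5 and Mcm2 were 0.40 and 0.17 in place of 0.61 and 0.44. Circadian clock genes had 0 higher and 0 lower of 18 (median -0.06), and the clock activator Arntl ranged from 8.40 to 21.6 CPM in Wt non-diabetic and from 2.78 to 11.9 CPM in Hif1a+/- diabetic LV. Cyp26b1, which breaks down retinoic acid, was also among the 5 largest positive differences, at 4.98, 2.82 and 3.799 CPM against 8.93, 13.9 and 12.3 CPM (1.61 ± 0.61). Several named genes overlap others in the annotation, among them Rab15 with Fntb, Timp1 with Syn1, Mat2a with Particl, Herc3 with Nap1l5 and Pfkfb2 with Yod1, and whether counting used strand is not given in the sources used here.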

How the data were processed

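RNA from the LV of 12 mice was made into 3′-seq libraries and sequenced in single 75-base reads. The authors trimmed reads with Trimmomatic, removed ribosomal and mitochondrial reads, aligned with STAR 2.5.2b to GRCm38 with GENCODE M8 and counted with HTSeq in union mode. The deposited raw counts per gene were used as they stand, and the authors' normalized tables were not used. Gene symbols and positions came from GENCODE M21 by gene ID (46488 of 46983 matched), and rows that name no gene were left out of library sizes. They held 20.2% to 24.2% of reads in the 6 samples, mostly alignments that were not unique.

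Counts were tested with edgeR 4.0.16 (quasi-likelihood, TMM scaling, 1 mean for each of the 4 groups, 8 residual degrees of freedom), with Benjamini-Hochberg adjustment over all 14505 genes and a threshold of 0.1. CPM are TMM-scaled, and fold changes are log2 with their standard error. The interaction came from the same fit. Alternatives were DESeq2 1.42.0, limma 3.58.1 (voom), other filters and scaling, and leaving out each replicate. DESeq2 gave no adjusted p for 571 genes, which stayed uncalled. Scripts were tested on simulated data with known changes. Within groups, chi-square per gene was 11.8 to 34, so no 2 samples were the same library. Replicates were separate mice, and with 3 per group the number of mice limits the precision.

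Genes were named by rule: Hif1a, the 12 smallest p in each direction outside X and Y, the 5 largest differences in each direction with a mean of at least 5 CPM and groups that did not overlap, up to 3 members per process list by p, the 3 smallest p within 10 Mb of Hif1a, the highest marker of each cell type and markers with p under 0.05, sex-linked genes for a check, and the highest-count gene. Predicted genes and pseudogenes were excluded from the first rankings. The comparison, the 28 process lists and the 17 marker lists were chosen with earlier results of these data known, and lists share members.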

Additional observations from a re-analysis of the deposited data

How the results depend on the processing

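The number of genes past the threshold was 0 in edgeR and stayed at 0 with an adjusted p under 0.05, DESeq2 size factors, 10 or more counts in each of the 6 samples, filterByExpr, only the 6 samples compared, a robust fit, and autosomes only (chosen after seeing the data). It was 76 with DESeq2, 2 with limma-voom and 445 with no filter on low counts (248 higher, 416 of them among the genes tested), and 0 to 1 in edgeR when 1 replicate was left out. DESeq2 with 1 replicate left out (chosen after seeing the data) called 3 to 430 genes: 22 without Wt non-diabetic replicate 25, 3 without replicate 42, 430 without replicate 89 (153 higher), 74 without Hif1a+/- diabetic replicate 66, 97 without replicate 72 (81 higher) and 31 without replicate 77, of which 16, 3, 66, 39, 45 and 19 were among its 76. The interaction count was 0 in edgeR, 4 with DESeq2 and 78 with no filter, and 0 in the other alternatives. The causes were not tested. No paired analysis was possible because the groups share no replicate numbers.

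Of 142 named genes, 135 kept their sign in every alternative. The log2 fold change changed sign for Nppa (-0.406 to 0.173 with 1 replicate left out, positive without 89 or 72), Fabp4 (-0.050 to 0.199, negative without 25, 42 or 72), Prox1 (-0.060 to 0.092, positive without 25, 89 or 66, and 0.058 with limma-voom, 0.011 with no filter and 0.000 with 10 counts in all 6), S100a9 (-0.952 to 1.745, positive without 25, and 0.99 with limma-voom), Cd4 (-0.692 to 0.109, positive without 42, 66 or 77), Kit (-0.084 to 0.431, negative without 25 or 72) and Hbb-bt (-3.036 to 0.144, positive without 25). Of 315 list medians recomputed, 20 moved by more than the spread between replicates.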
